A study of Homo sapiens with 21 samples.

Results

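AGO2-bound RNA clusters of HK-2 cells exposed to cyclosporine A were compared with those of cells exposed to vehicle. All 36812 clusters of the cyclosporine A list and all 56985 clusters of the vehicle list were used, 93797 regions in all. A cluster counted as shared when a cluster of the other list lay on the same chromosome and strand and overlapped it by 1 base or more, and otherwise as found in 1 list only. By that rule 17764 clusters of the cyclosporine A list (48.3%) and 17736 of the vehicle list (31.1%) were shared. The lists rest on 4 of the 21 samples of the series, and each list pools the 2 AGO2 libraries of its treatment. No replicate spread exists for the clusters, so no test between treatments was possible on them. Intervals on shares are 95% Wilson intervals that cover counting error only, and reads without molecular identifiers are not independent molecules.

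HK-2 is an immortalised line from the human kidney proximal tubule, so all results describe 1 line in culture. For the AGO2 clusters, the exposure lasted 24 h, to cyclosporine A at 5 µg/mL or to its vehicle, ethanol at 0.1%. Both groups also received 100 µM 4-thiouridine for 16 to 18 h and were irradiated at 365 nm with 0.15 J/cm2 before immunoprecipitation with the anti-AGO2 antibody C34C6. For mRNA and miRNA sequencing, separate cells received cyclosporine A at the same dose or the vehicle for 48 h, without 4-thiouridine, with 4 libraries per treatment and RNA class. Whether each library had its own culture is not in the labels, so the p-values rest on a spread among libraries that may be only technical. Library totals ranged from 3965431 to 7041604 counts for mRNA and from 6664231 to 9184278 for miRNA. Of 14 proximal tubule markers, 6 passed the filter on low counts, 1 higher and 4 lower with cyclosporine A. Over all genes tested 33.3% were higher and 33.5% lower. Levels are in CPM, the count scaled to the library's total over genes that passed the filter and to its TMM normalisation factor. The summed level of the 14 markers was 368 to 379 CPM with cyclosporine A and 347 to 377 CPM with vehicle. That sum was held up by *MME*, at a mean of 201 CPM with cyclosporine A and 60.3 CPM with vehicle, while *GGT1*, *PDZK1*, *SLC3A1* and *SLC4A4* fell. *SLC22A6* and *SLC22A8*, which encode organic anion transporters that define this segment in the kidney, had no count in any mRNA library, whereas all 5 epithelial markers were tested, with summed levels of 856 to 958 CPM with cyclosporine A and 732 to 799 CPM with vehicle. The keratins *KRT8*, *KRT18* and *KRT19* rose, whereas *EPCAM* fell and the E-cadherin gene *CDH1* fell to a mean of 1.57 CPM with cyclosporine A, against 8.71 CPM with vehicle. Summed distal and collecting tubule markers stood at 624 to 660 CPM with cyclosporine A and 1107 to 1244 CPM with vehicle. Nearly all of that sum was 1 gene, *SCNN1A*, at a mean of 639 CPM with cyclosporine A and 1174 CPM with vehicle. Of the 6 genes listed 2 passed the filter, and *AQP2* and *UMOD* had no count. In such bulk libraries fewer cells of a type and less RNA per cell cannot be told apart.

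AGO2 is the Argonaute protein that carries a mature miRNA and holds it against target mRNAs, most often in the 3' UTR, where pairing starts with the seed of the miRNA. In PAR-CLIP, 4-thiouridine built into new RNA crosslinks to the bound protein under ultraviolet light, RNase T1 trims the RNA, and the fragments that stay are sequenced and grouped into clusters. Such a cluster may therefore hold a piece of a target mRNA, the miRNA itself, or any abundant RNA that came down with the protein. Bound to a cyclophilin, cyclosporine A blocks the phosphatase calcineurin, so that NFAT transcription factors stay in the cytoplasm. The drug prevents graft rejection and is known for its toxicity to the renal tubule.

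Mature miRNAs were recovered as clusters at their own genes, mostly in 1 list only. A cluster was counted when it held at least the first 16 bases of a mature miRNA of RefSeq (GRCh38.p14) on that miRNA's chromosome and strand, which 9 clusters of the cyclosporine A list and 10 of the vehicle list did. Together they covered 18 miRNAs, and 1 of them, miR-19b-3p, was found in both lists, at the same interval. All were annotated as promoter clusters, of which 48.7% were shared in the cyclosporine A list and 28.1% in the vehicle list. Over all clusters these shares were 48.3% and 31.1%. Most clusters of the vehicle list were thus in 1 list only, and whether the few miRNA clusters differ from the rest was not tested. The following clusters are shown because they hold the AGO2-bound guide strand itself; hg19 positions are those of the lists, and capitals mark the seed, bases 2 to 8 of the miRNA.
miR-22-3p, cyclosporine A list, chr17:1617209-1617229, minus strand: aAGCTGCCagttgaagaactg
miR-221-3p, cyclosporine A list, chrX:45605610-45605630, minus strand: aGCTACATtgtctgctgggtt
miR-222-3p, vehicle list, chrX:45606440-45606462, minus strand: aGCTACATctggctactgggtct
let-7f-5p, cyclosporine A list, chrX:53584208-53584228, minus strand: tGAGGTAGtagattgtatagt
let-7b-5p, vehicle list, chr22:46509571-46509593, plus strand: tGAGGTAGtaggttgtgtggttt
miR-10a-5p, vehicle list, chr17:46657267-46657288, minus strand: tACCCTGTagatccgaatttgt
miR-19b-3p, both lists, chrX:133303714-133303735, minus strand: tGTGCAAAtccatgcaaaactg
miR-221-3p and miR-222-3p have the same seed, as do let-7f-5p and let-7b-5p, so members of 1 seed family appeared in different lists.

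The other clusters of this kind held miR-92a-3p, miR-24-3p, miR-25-3p, miR-192-5p and miR-106b-5p in the cyclosporine A list. In the vehicle list they held miR-93-5p, miR-30a-5p, miR-27a-3p, let-7a-5p, miR-30c-5p and miR-4485-3p. The miR-30a-5p cluster was 42 bases wide and had 19 bases before the mature sequence, so it held more than the mature miRNA. That of miR-4485-3p had 2 bases before it. By the authors' peak score, whose unit is not given in the sources used here and which only ranks clusters within a list, miR-22-3p stood highest in the cyclosporine A list, at rank 977 of 36812, and let-7b-5p highest in the vehicle list, at rank 2335 of 56985. miR-10a-5p and miR-222-3p stood at ranks 44828 and 47605 of the vehicle list, near its low end. No cluster of either list held miR-21-5p at its locus, although this miRNA was the most abundant of the small RNA libraries, at 594566 ± 123642 CPM with cyclosporine A and 595716 ± 55875 CPM with vehicle (SD, n = 4 each).

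The target side of the same interaction was searched with the 10 most abundant seed families. Their leading members have these mature sequences in RefSeq (GRCh38.p14), given as the reference against which the clusters were read, with the seed in capitals.
miR-21-5p: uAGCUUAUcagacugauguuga
miR-30a-5p: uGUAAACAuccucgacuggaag
let-7i-5p: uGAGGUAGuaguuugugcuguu
miR-26a-5p: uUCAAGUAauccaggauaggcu
miR-10a-5p: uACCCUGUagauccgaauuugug
miR-222-3p: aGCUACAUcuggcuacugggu
miR-92a-3p: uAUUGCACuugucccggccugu
miR-205-5p: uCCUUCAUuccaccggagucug
miR-200b-3p: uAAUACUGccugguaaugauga
miR-181a-5p: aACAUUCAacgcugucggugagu
A match is the exact complement of the seed within the cluster, read on the strand of the cluster. From the 3' UTR clusters with such a match, 9 of those found in 1 list only are shown as examples of what a possible target site looked like in each list; capitals mark the match.
*GSK3A*, miR-10a, cyclosporine A list, chr19:42734708-42734729, minus strand: aaggACAGGGTgttggggggat
*RAPGEF2*, miR-10a, cyclosporine A list, chr4:160279947-160279965, plus strand: ccggACAGGGTgtggccac
*GTF2E1*, miR-222, cyclosporine A list, chr3:120501680-120501696, plus strand: ttctgatATGTAGCatg
*HIPK2*, miR-222, cyclosporine A list, chr7:139256774-139256795, minus strand: acaccctagtagaATGTAGCac
*CDKN1B*, miR-222, vehicle list, chr12:12874151-12874174, plus strand: aaaagcgttggATGTAGCattatg
*DUSP5*, miR-21, vehicle list, chr10:112270637-112270659, plus strand: ttcggggcATAAGCTgatcaccg
*SFXN1*, miR-30a, vehicle list, chr5:174954756-174954784, plus strand: aaaccatgtaccacTGTTTACatcatctg
*HIPK3*, miR-205, vehicle list, chr11:33377304-33377331, plus strand: aaATGAAGGacttaattttccccacaag
*RDH11*, miR-205, vehicle list, chr14:68144248-68144265, minus strand: cacaaaATGAAGGgacta
The strand of the gene was not known for *HIPK2* and *DUSP5*, and the other 7 clusters lay on the strand of the gene.

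Shared clusters were rarer in mature mRNA than elsewhere. In the class 3' UTR, 170 of 530 clusters of the cyclosporine A list were shared (32.1%, 28.2 to 36.2%), and 170 of 748 of the vehicle list (22.7%, 19.9 to 25.9%). Clusters in exons behaved alike, with 32.5% of 1392 shared in the cyclosporine A list and 21.4% of 2102 in the vehicle list. Intergenic clusters were shared more often, 49.6% of 17211 (48.9 to 50.4%) in the cyclosporine A list and 31.9% of 26741 (31.4 to 32.5%) in the vehicle list, and so were intronic ones, at 48.9% of 15698 and 31.8% of 24149. For both 3' UTR and exon, the interval of the share lay wholly below that of the intergenic clusters of the same list.

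**Figure D1:**
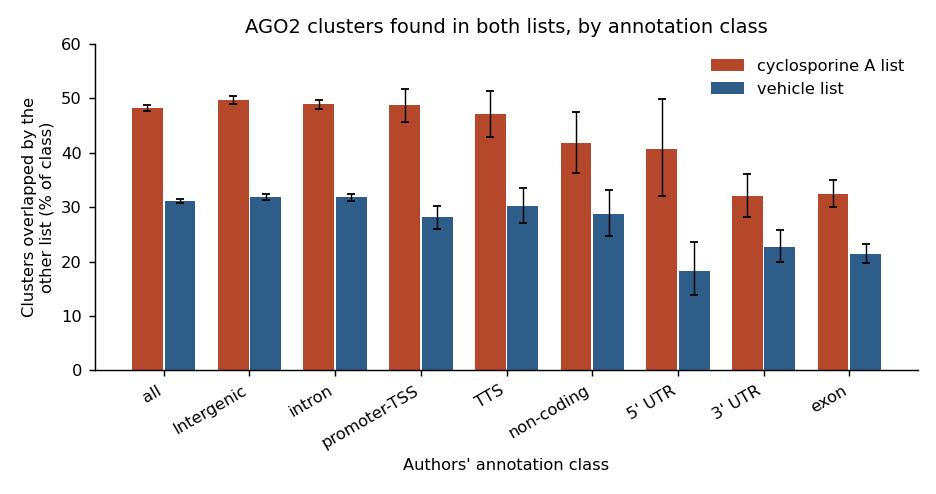
Bars give the share of clusters of each annotation class that a cluster of the other list overlaps, for the cyclosporine A list (left bar of each pair) and the vehicle list (right bar), with 95% Wilson intervals for counting error only. The 3' UTR and exon bars, 32.1% and 32.5% in the cyclosporine A list and 22.7% and 21.4% in the vehicle list, lie below the intergenic and intronic bars.

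In 5' UTRs 46 of 113 clusters (40.7%) were shared in the cyclosporine A list and 45 of 247 (18.2%) in the vehicle list. Promoter regions had 48.7% of 1047 and 28.1% of 1790 clusters shared, transcription end regions 47.1% of 524 and 30.2% of 787, and non-coding RNA genes 41.8% of 297 and 28.7% of 421. The make-up of the whole lists differed little: 3' UTR clusters were 1.44% of the cyclosporine A list (1.32 to 1.57%) and 1.31% of the vehicle list (1.22 to 1.41%), and intergenic clusters 46.8% and 46.9%. The 5' UTR class had 0.307% of clusters (0.255 to 0.369%) in the cyclosporine A list against 0.433% (0.383 to 0.491%) in the vehicle list, the intervals of which do not overlap.

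Whether a cluster was shared went with its place in the score ranking. When each list was cut by score into 10 groups of like size, 82.5% of cyclosporine A clusters and 77.4% of vehicle clusters in the highest group were shared. In the lowest group the shares were 20.7% and 8.47%, with a fall at each step between. The shared clusters held 89.3% of the summed score of the cyclosporine A list and 84.2% of that of the vehicle list. Where both lists had a cluster the intervals matched closely: 87.8% of the 17780 overlapping pairs covered the shorter cluster completely and 26.6% had identical ends. Spearman's correlation of the scores over these pairs was 0.69, given as a description only, since the points share their libraries.

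**Figure D2:**
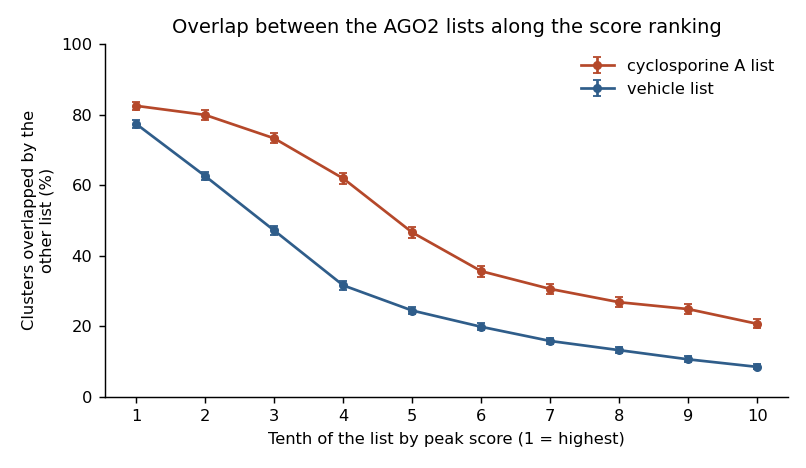
Points give the share of clusters that overlap a cluster of the other list in each of 10 groups of a list ranked by the authors' peak score (1 is the highest), for the cyclosporine A and vehicle lists, with 95% Wilson intervals for counting error only. The share falls along the ranking, 82.5% to 20.7% in the cyclosporine A list and 77.4% to 8.47% in the vehicle list.

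The 3' UTR clusters were thinner among the highest scores: the highest 3 of the 10 groups held 102 of 530 in the cyclosporine A list (19.2%), beside 10954 of 36282 other clusters, and 173 of 748 in the vehicle list (23.1%), beside 16904 of 56237 others. The upper 50% of the ranking held 219 of the 530 and 373 of the 748. In the highest 3 groups, 82 of 102 3' UTR clusters of the cyclosporine A list were shared (80.4%, 71.6 to 86.9%), beside 78.5% of its other clusters, and 98 of 173 of the vehicle list (56.6%, 49.2 to 63.8%), beside 62.5% of its other clusters. In the lower 7 groups 88 of 428 cyclosporine A 3' UTR clusters were shared (20.6%, 17.0 to 24.6%), beside 35.5% of the others, and 72 of 575 vehicle ones (12.5%, 10.1 to 15.5%), beside 17.8%. The 3' UTR clusters thus differed from the others of their list in the lower 7 groups, and in the highest 3 groups the other clusters' share lay within the interval of the 3' UTR clusters. Clusters of 1 list were not near misses: 3.88% of the cyclosporine A ones and 2.42% of the vehicle ones lay within 1000 bases of a cluster of the other list.

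Ribosomal RNA held a large part of the score of both lists. Clusters annotated as rRNA, or sharing a 20-base stretch with one that was, numbered 225 in the cyclosporine A list and 235 in the vehicle list and held 52.6% and 39.7% of the summed score, and 90.7% and 84.3% of them were shared. The highest cluster of both lists lay at chr1:91852779-91853149 in an intron of *HFM1*, annotated as an rRNA repeat. The intronic clusters of *PDE3A* and *SLCO5A1* and an intergenic one on chromosome 21 were also among the 5 highest of both lists and were marked as rRNA; the fifth cluster of the vehicle list, at chr5:180102169-180102225, was not. The authors' score put 27.3% of its cyclosporine A total and 19.6% of its vehicle total in the 10 highest clusters. All 3' UTR clusters together held 0.274% and 0.444%. On the mitochondrial genome 72 and 67 clusters were listed, of which 68.1% and 47.8% were shared, and tRNA repeats had 56 and 64, of which 69.6% and 62.5% were shared.

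Strand separated the shared 3' UTR clusters from those of 1 list. The strand of the gene was known for 82.6% of the 3' UTR clusters of the cyclosporine A list and 83.5% of those of the vehicle list outside chromosome 8, for which no strand was used. Of the shared ones, 70 of 134 lay on the strand of the gene in the cyclosporine A list and likewise 70 of 134 in the vehicle list (52.2%, 43.8 to 60.5%). Of the clusters in the cyclosporine A list only, 221 of 288 did (76.7%, 71.5 to 81.2%), and of those in the vehicle list only, 313 of 469 (66.7%, 62.4 to 70.9%). In both lists the interval of the 1-list clusters lay above that of the shared clusters, and the 1-list clusters of cyclosporine A lay above those of vehicle, again with intervals that do not overlap. Since each list pools its libraries, whether that last gap exceeds the spread between libraries was not tested.

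**Figure D3:**
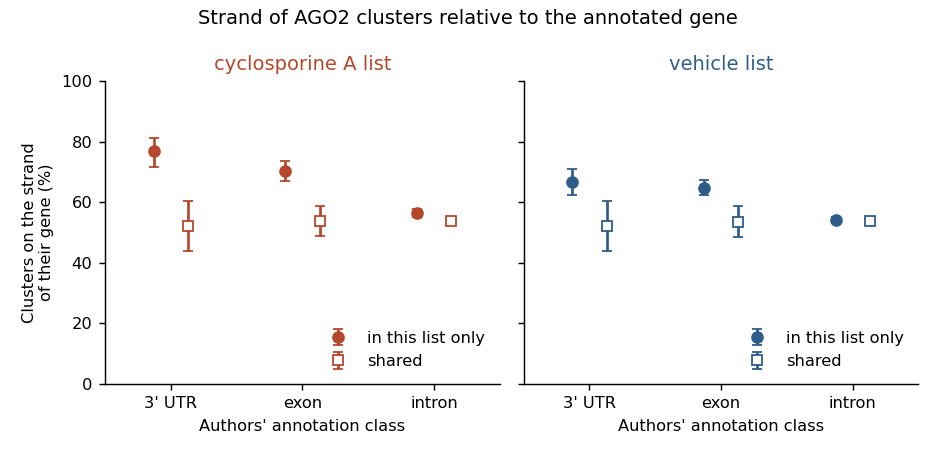
Points give the share of clusters that lie on the strand of their annotated gene for 3' UTR, exon and intron clusters, split into those of 1 list only (filled circles) and shared ones (open squares), in the cyclosporine A list (left panel) and the vehicle list (right panel), with 95% Wilson intervals for counting error only. The 1-list clusters in 3' UTRs, at 76.7% and 66.7%, stand above the shared ones at 52.2% in both panels.

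Exons followed the same order, with 70.4% of 1-list against 53.7% of shared clusters on the gene's strand in the cyclosporine A list and 64.8% against 53.6% in the vehicle list. Introns gave 56.4% against 53.8% and 54.1% against 53.8%. In 5' UTRs, 73.3% of the cyclosporine A clusters (66 of 90) and 76.1% of the vehicle clusters (156 of 205) lay on the strand of the gene. For promoter, transcription end and non-coding clusters fewer than 80% had a known strand, so that check is void. RNase T1 cuts after G, and over all clusters G was less frequent at the last position than in the whole sequence: it made up 30.01% of all bases of the cyclosporine A list and 30.04% of those of the vehicle list and stood at the last position of 26.6% of cyclosporine A clusters and 26.5% of vehicle clusters. Of the 3' UTR clusters on the gene's strand, 31.6% and 35.8% ended in G, beside 26.9% and 28.7% of all their bases.

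At gene level the 3' UTR clusters pointed to 487 genes in the cyclosporine A list and 708 in the vehicle list, 983 in all, of which 212 were in both lists, 43.5% of the first set and 29.9% of the second. In 46 of these 212 genes the clusters of the lists did not overlap. Most genes had a single cluster, 448 of 487 and 670 of 708.

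The highest-scoring shared 3' UTR cluster of both lists was that of *ADRB1*, the beta-1 adrenergic receptor gene, at rank 188 of the cyclosporine A list and rank 192 of the vehicle list. It was followed in the cyclosporine A list by those of *SLC25A36*, *DDAH1*, *O3FAR1*, *INHBA*, *RXRA*, *TTC8* and *MTRNR2L7*, and in the vehicle list by those of *ZYG11A*, *HLCS*, *O3FAR1*, *GRIK4*, *SMURF2*, *KRIT1* and *SLC25A36*. The highest 3' UTR clusters in the cyclosporine A list only were those of *FBLN1* (a matrix protein, rank 831), *CMBL*, *C15orf2*, *SLC8A1* (the sodium-calcium exchanger), *FAM20B*, *KIAA0226*, *RALGPS1* and *GFER*. Those in the vehicle list only were *GUCY1A2* (a guanylate cyclase subunit, rank 343), *PPP1R3B*, *PACSIN1*, *ADRA2B*, *SYK*, *ZBED3*, *LDB1* and *C9orf167*. Of these clusters 3 and 4, on *FBLN1*, *KIAA0226* and *RALGPS1* and on *GUCY1A2*, *PACSIN1*, *SYK* and *ZBED3*, lay antisense to the gene. Among the shared ones, that of *O3FAR1* did so in the cyclosporine A list, and those of *HLCS*, *O3FAR1*, *GRIK4* and *KRIT1* in the vehicle list. Several of the genes had no mRNA count in any of the 8 libraries: *O3FAR1*, *MTRNR2L7*, *C15orf2*, *GRIK4* and *SYK*.

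Two-sided tests of mRNA at 48 h, with edgeR's quasi-likelihood test and Benjamini-Hochberg adjustment over all genes, called 8597 of 12855 genes, or 66.9%: 33.3% of the genes tested were higher and 33.5% lower with cyclosporine A. Of the 8 genes with the highest shared clusters in the cyclosporine A list, 4 rose, 1 fell, 1 did not pass and 2 were not tested; of the 8 in the vehicle list, 2 rose, 4 did not pass and 2 were not tested. Of the 8 with the highest clusters in 1 list only, 3 rose and 2 fell for the cyclosporine A list, and 2 rose and 1 fell for the vehicle list. *INHBA*, which encodes the activin A subunit, had 9.67, 13.4, 10.4 and 9.72 CPM in the cyclosporine A libraries, against 6.38, 4.78, 4.66 and 4.97 CPM in the vehicle libraries. The groups did not overlap, and its log2 fold change was 1.02 ± 0.18 (SE, edgeR adjusted p = 1.57e-06). *SMURF2*, a ubiquitin ligase that acts on TGF-beta signalling, averaged 34.6 ± 5.40 CPM with cyclosporine A and 22.4 ± 1.32 CPM with vehicle (SD, n = 4 each) and rose by 0.62 ± 0.10 on the log2 scale. *FBLN1* fell to 174 ± 4.89 CPM with cyclosporine A, against 358 ± 27.1 CPM with vehicle, a log2 fold change of -1.04 ± 0.06.

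Genes with several 3' UTR clusters were few. *CDK6*, a cell cycle kinase and a known let-7 target, had 4 clusters in the cyclosporine A list and 1 in the vehicle list, none of which overlapped. The 4 of the cyclosporine A list lay on the strand of the gene and the vehicle one lay antisense. They are shown because no other gene had as many in that list; none holds the let-7 seed match.
*CDK6*, chr7:92235731-92235753, minus strand: tccacatggtgctctccatcttc
*CDK6*, chr7:92237031-92237048, minus strand: cgggggattttttttcaa
*CDK6*, chr7:92239303-92239321, minus strand: catatttaactctttccta
*CDK6*, chr7:92242283-92242306, minus strand: cattcaaggtcaggtctactcaaa
The score ranks of these 4 lay between 16804 and 25776 of the cyclosporine A list. *CDK6* mRNA had 102, 103, 111 and 96.4 CPM in the cyclosporine A libraries, against 121, 106, 114 and 122 CPM in the vehicle libraries. Those ranges overlap, and the log2 fold change was -0.17 ± 0.07 (edgeR adjusted p = 0.0211).

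*WNT5A*, a secreted Wnt ligand, had 3 clusters in the cyclosporine A list and 1 in the vehicle list, all on the strand of the gene and none overlapping. Its mRNA fell to 23.9 ± 1.12 CPM with cyclosporine A, against 31.2 ± 2.26 CPM with vehicle (SD, n = 4 each, log2 fold change -0.39 ± 0.10). *PEG10*, an imprinted gene of retroviral origin, had 3 clusters in the cyclosporine A list and 1 in the vehicle list, again without overlap. Its mRNA averaged 203 ± 11.9 CPM with cyclosporine A and 222 ± 10.98 CPM with vehicle, a difference short of the threshold (edgeR adjusted p = 0.0552). *SCD*, the stearoyl-CoA desaturase gene, had 2 clusters in the cyclosporine A list and 4 in the vehicle list, all on the strand of the gene and none overlapping. The 4 of the vehicle list are shown as the most of any gene there.
*SCD*, chr10:102121423-102121441, plus strand: aacatatagttgaggccga
*SCD*, chr10:102121908-102121927, plus strand: tggagaggctgagggacagg
*SCD*, chr10:102121953-102121974, plus strand: acttcacataggaagggatctg
*SCD*, chr10:102123549-102123568, plus strand: taaactcagatctgatcaag
*SCD* mRNA had 5089, 4989, 5398 and 4830 CPM in the cyclosporine A libraries, against 5013, 4832, 4624 and 4339 CPM in the vehicle libraries. The ranges overlap, and edgeR's adjusted p was 0.101.

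Matches to the seed alone were about as frequent in 3' UTR clusters as in the rest of each list, whereas in the vehicle list the longer match, with an A after it, was more frequent in 3' UTR clusters. A match to any of the 10 families stood in 7 of 530 3' UTR clusters of the cyclosporine A list (1.32%, 0.641 to 2.70%), beside 1.40% of its other clusters, and in 12 of 748 of the vehicle list (1.60%, 0.920 to 2.78%), beside 1.49%. Among 3' UTR clusters of the cyclosporine A list, 3 of 170 shared and 4 of 360 of 1 list held one, and in the vehicle list 3 of 170 and 9 of 578. Restricted to the strand of the gene the shares were 4 of 291 (1.37%) and 7 of 383 (1.83%). The intervals of 3' UTR and other clusters overlap in each of these sets. For the 8-mer, the seed match followed by an A, 3 of 530 3' UTR clusters of the cyclosporine A list held one (0.566%, 0.193 to 1.65%), beside 0.333% of its other clusters (0.279 to 0.398%). In the vehicle list 8 of 748 did (1.07%, 0.543 to 2.10%), beside 0.341% of its other clusters (0.296 to 0.393%), and these intervals do not overlap. Of those 8 clusters 7 were in the vehicle list only and 5 lay on the strand of the gene, among them those of *CDKN1B*, *HIPK3* and *SFXN1* shown above. Of all vehicle 3' UTR clusters of known strand 63.5% lay on that strand. The 8-mer stood in 1.31% of these (0.559 to 3.02%) and in 0.909% of antisense ones (0.250 to 3.25%), with overlapping intervals. In the cyclosporine A list it stood in 0.344% and 0.763%. Those of *HES2*, *TBC1D12*, *HIPK3*, *TCHP* and *ATP2B3* matched miR-205.

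No 3' UTR cluster of either list held the let-7, miR-26a, miR-92a, miR-200b or miR-181a match, and the miR-21 match stood in 0 of 530 and 1 of 748. The 16 genes with a match were in 7 cases in the cyclosporine A list and in 12 in the vehicle list, with *TCHP*, *STK24* and *CNGB3* in both. Of the 13 that were tested for mRNA, 8 rose and 3 fell, beside 33.3% and 33.5% of all genes tested.

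*DUSP5*, a phosphatase of ERK kinases, carried the single miR-21 match, in the vehicle list only; the strand of the gene was not known. Its mRNA had 255, 247, 265 and 267 CPM in the cyclosporine A libraries, against 73.9, 74.9, 69.2 and 77.2 CPM in the vehicle libraries. All cyclosporine A libraries stood above all vehicle libraries, with a log2 fold change of 1.81 ± 0.06 (edgeR adjusted p = 8.91e-33). *CDKN1B*, the gene of the cell cycle inhibitor p27 and a textbook target of miR-221 and miR-222, carried its match in the vehicle list only, on the strand of the gene, at rank 44828. Its mRNA had 53.1, 47.9, 42.8 and 44.5 CPM in the cyclosporine A libraries, against 55.9, 60.9, 55.5 and 60.7 CPM in the vehicle libraries, and fell by 0.30 ± 0.08 on the log2 scale, with no overlap between the groups (edgeR adjusted p = 0.000899).

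The miR-222 matches of the cyclosporine A list only stood in *HIPK2*, a kinase of the p53 response, and *GTF2E1*, a subunit of the general transcription factor TFIIE. *HIPK2* mRNA averaged 413 ± 10.97 CPM with cyclosporine A and 273 ± 11.2 CPM with vehicle (log2 fold change 0.60 ± 0.06, edgeR adjusted p = 6.87e-14). *GTF2E1* averaged 23.0 ± 2.19 CPM with cyclosporine A and 19.7 ± 1.82 CPM with vehicle, with an edgeR adjusted p of 0.0803. Of the miR-10a pair, *GSK3A*, a glycogen synthase kinase, rose by 0.29 ± 0.08 and *RAPGEF2*, a Rap exchange factor, had a log2 fold change of 0.15 ± 0.07 that did not pass. In the vehicle list, *HIPK3* rose by 0.72 ± 0.11 and the mitochondrial serine transporter gene *SFXN1* by 0.42 ± 0.08, and the retinol dehydrogenase gene *RDH11* fell by 0.24 ± 0.06.

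Of the miRNAs themselves, few changed at 48 h. edgeR's quasi-likelihood test called 53 of 470 miRNAs, or 11.3%: 4.89% of those tested were higher and 6.38% lower with cyclosporine A. Of the 18 miRNAs with a cluster at their own gene, 1 rose and 2 fell, all 3 with a cluster in the vehicle list only. miR-27a-3p had 2779, 2674, 3055 and 2916 CPM in the cyclosporine A libraries, against 1969, 2159, 2051 and 2502 CPM in the vehicle libraries, and rose by 0.40 ± 0.11 on the log2 scale (edgeR adjusted p = 0.0235). miR-10a-5p had 12478, 11946, 15308 and 15505 CPM in the cyclosporine A libraries, against 19951, 17808, 19815 and 19080 CPM in the vehicle libraries. The groups did not overlap for either miRNA, and miR-10a-5p fell by 0.47 ± 0.11 (edgeR adjusted p = 0.00976). miR-4485-3p fell to 8.04 ± 1.86 CPM with cyclosporine A, against 21.7 ± 4.16 CPM with vehicle. Among the leading members of the 10 families miR-10a-5p alone passed; miR-222-3p averaged 10886 ± 1909 CPM with cyclosporine A and 8773 ± 661 CPM with vehicle, with an edgeR adjusted p of 0.121.

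The level of the captured protein's own mRNA differed between treatments. *EIF2C2*, the symbol under which the files list AGO2, had 45.0, 45.2, 42.8 and 43.7 CPM in the cyclosporine A libraries, against 18.9, 17.5, 18.2 and 18.1 CPM in the vehicle libraries. All 4 stood above all vehicle libraries, and the log2 fold change was 1.28 ± 0.10 (edgeR adjusted p = 7.47e-18). Of the other Argonaute genes *EIF2C3* rose by 0.98 ± 0.13, *EIF2C4* fell by 0.27 ± 0.12, and *EIF2C1* did not pass, with 31.2 ± 2.17 CPM with cyclosporine A and 28.0 ± 1.798 CPM with vehicle. These values come from 48 h and the clusters from 24 h, and the amount of AGO2 protein was not measured. Its part in the lengths of the lists was not tested.

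Genes with 3' UTR clusters were set against their mRNA change by the list they came from. Of the 983 genes 969 were in the count table, and 781 passed the filter on low counts. With clusters in the cyclosporine A list only, 224 of 272 genes were tested, of which 39.7% were higher and 32.6% lower, with a median log2 fold change of 0.10. With clusters in both lists, 167 of 211 were tested, 42.5% higher and 28.1% lower, with a median of 0.11. With clusters in the vehicle list only, 390 of 486 were tested, 156 of them higher and 131 (33.6%) lower, with a median of 0.04. Over all 12855 genes tested 33.3% were higher and 33.5% lower, with a median of -0.00. The filter passed 82.4% of the genes of the cyclosporine A list only, 79.1% of both lists and 80.2% of the vehicle list only. It passed 55.0% of all features of the count table, and the part of mRNA level in the called shares was not tested. Over the 4 cyclosporine A libraries the SD of the median was 0.037 for the cyclosporine A list only. It was 0.039 for both lists and 0.024 for the vehicle list only. Beside these medians the quartiles lay wide, at -0.35 and 0.42 for the cyclosporine A list only and -0.24 and 0.42 for both lists. They were -0.39 and 0.43 for the vehicle list only, and -0.42 and 0.35 for all genes. Counted on the gene's strand alone, the medians were 0.18 for the cyclosporine A list only, 0.05 for both lists and 0.11 for the vehicle list only.

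**Figure D4:**
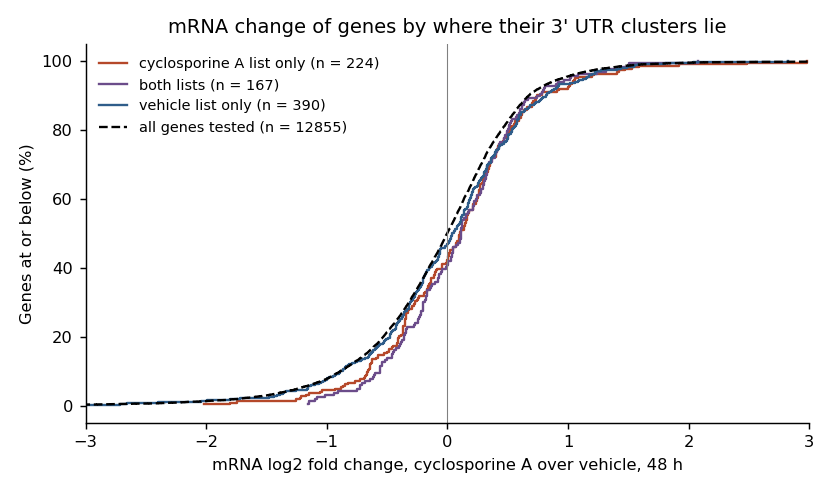
Lines give the cumulative share of genes at or below each mRNA log2 fold change (cyclosporine A over vehicle, 48 h) for genes with 3' UTR clusters in the cyclosporine A list only, in both lists and in the vehicle list only, with all 12855 genes tested as a dashed line; values beyond 3 in either direction are not drawn. The medians are 0.10, 0.11 and 0.04, beside -0.00 for all genes.

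Large mRNA changes in both directions occurred among the genes of either list. For genes with a 3' UTR cluster in the cyclosporine A list only, the largest rises among genes of at least 10 CPM were those of *THBD*, *SNAI2*, *GNA13*, *TOX2* and *N4BP3*. *THBD*, which encodes the anticoagulant receptor thrombomodulin, had 279, 258, 244 and 226 CPM in the cyclosporine A libraries, against 35.8, 33.7, 29.6 and 26.6 CPM in the vehicle libraries (log2 fold change 2.98 ± 0.08, edgeR adjusted p = 4.66e-39). *SNAI2*, a transcription factor of epithelial-mesenchymal transition, averaged 27.4 ± 3.74 CPM with cyclosporine A and 4.90 ± 0.610 CPM with vehicle, and *GNA13*, a G protein alpha subunit, averaged 239 ± 18.6 CPM and 63.0 ± 7.06 CPM. *GNA13* had 2 clusters on the strand of the gene, at ranks 20191 and 35258 of 36812. That of *TOX2* stood at rank 36259. The largest falls were those of *SLCO4C1*, *ALDH4A1*, *ZNF784*, *CBX2* and *MAP3K1*. *SLCO4C1*, a kidney transporter of organic anions, fell to 16.0 ± 1.97 CPM with cyclosporine A, against 64.4 ± 7.27 CPM with vehicle (log2 fold change -2.02 ± 0.10), but its cluster lay antisense to the gene, as did that of *ALDH4A1*. For *THBD*, *SNAI2*, *CBX2* and *MAP3K1* the strand of the gene was not known.

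For genes with a cluster in the vehicle list only, the largest rises included those of *DOCK9*, *GUCY1A2*, *DUSP5* and *RRAGD*. *DOCK9*, an exchange factor for CDC42, had 290, 297, 282 and 297 CPM in the cyclosporine A libraries, against 44.4, 42.1, 32.8 and 43.8 CPM in the vehicle libraries (log2 fold change 2.83 ± 0.07). *GUCY1A2* averaged 21.1 ± 5.09 CPM with cyclosporine A and 5.00 ± 0.828 CPM with vehicle; the clusters of both genes lay antisense. For *DUSP5* and *RRAGD* the strand of the gene was not known. The largest falls were those of *TNFSF10*, *FRMD4B*, *CCBE1*, *TNFAIP2* and *SOX4*. The cluster of *CCBE1* lay antisense, and that of *FRMD4B* stood at rank 54942 of 56985. *TNFSF10*, the death ligand TRAIL, had 50.2, 57.9, 59.8 and 50.6 CPM in the cyclosporine A libraries, against 595, 593, 625 and 573 CPM in the vehicle libraries (log2 fold change -3.45 ± 0.07), with an antisense cluster. *SOX4*, a transcription factor of progenitor cells, fell to 110 ± 8.08 CPM with cyclosporine A, against 372 ± 20.2 CPM with vehicle, and its cluster, on the strand of the gene, stood at rank 52231 of 56985. The groups of libraries did not overlap for any of these genes, which the choice of the largest changes favours.

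**Figure D5:**
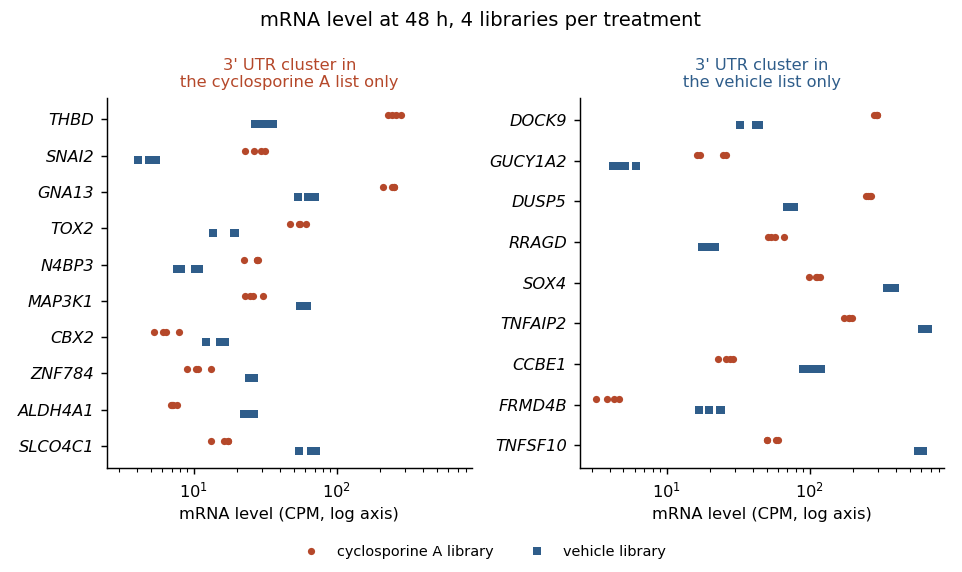
Points give the mRNA level in each of 4 cyclosporine A libraries (circles) and 4 vehicle libraries (squares) at 48 h, in CPM on a log axis, for genes of the largest rises and falls among those with 3' UTR clusters in the cyclosporine A list only (left) and in the vehicle list only (right). Rises and falls occur in both panels; *THBD* and *SNAI2* lie highest by change on the left and *DOCK9* and *GUCY1A2* on the right.

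Of all 23368 features of the count table, 4.15% had a 3' UTR cluster in either list, and of the 12855 genes tested 6.08%. Among 21 genes of the miRNA pathway 3 had one (14.3%): *DROSHA*, the nuclear nuclease that starts miRNA processing, had a shared cluster, *TNRC6B* one in the cyclosporine A list only and *TNRC6A* one in the vehicle list only. Both *TNRC6* genes encode GW182 proteins that bind Argonaute. *TNRC6B* mRNA rose by 0.27 ± 0.07, and *DROSHA* and *TNRC6A* did not pass (edgeR adjusted p = 0.258 and 0.511). Over the list 7 of 20 tested genes rose and 4 fell, beside 33.3% and 33.5% of all genes tested. Of 23 calcineurin, NFAT and cyclophilin genes *NFATC2* alone had a cluster, in the vehicle list only, and its mRNA had no count in any library, while 10 of 21 tested genes of that list rose and 4 fell (33.3% and 33.5% of all genes).

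Known miRNA targets were looked up in the same way. Of 26 reported miR-21 targets 8 had a 3' UTR cluster (30.8%): *KRIT1* in both lists, *TIMP3*, *PPARA*, *RHOB* and *NFIB* in the cyclosporine A list only, and *BCL2*, *CDC25A* and *YOD1* in the vehicle list only. None of these clusters held the miR-21 seed match, and those of *KRIT1* and *CDC25A* lay antisense. Of 23 tested genes of the list 9 rose and 11 fell, beside 33.3% and 33.5% of all genes; *BCL2*, a survival gene, averaged 6.75 ± 1.58 CPM with cyclosporine A and 2.76 ± 1.17 CPM with vehicle and rose by 1.22 ± 0.24. Of 22 let-7 targets 5 had one (22.7%), *CDK6* in both lists, *HIC2* in the cyclosporine A list only, and *CDC25A*, *NRAS* and *TGFBR1* in the vehicle list only, those of *CDC25A* and *TGFBR1* antisense. *NRAS* rose by 0.40 ± 0.08, and over the list 12 of 20 tested genes rose and 3 fell, beside 33.3% and 33.5% of all genes. Of 36 further known targets 5 had one (13.9%): *IRS2* and *MCL1* had separate clusters in each list (that of *IRS2* in the vehicle list antisense), *SNAI2* one in the cyclosporine A list only, and *CDKN1B* and *DDIT4* one in the vehicle list only. *IRS2*, the insulin receptor substrate, rose to 293 ± 29.3 CPM with cyclosporine A, against 138 ± 2.58 CPM with vehicle, and 19 of 35 tested genes of the list rose and 9 fell, beside 33.3% and 33.5% of all genes.

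Of 30 TGF-beta and matrix genes 4 had a 3' UTR cluster. *LAMC1*, a laminin chain of the tubular basement membrane, had a shared cluster on the strand of the gene, at rank 2274 of the cyclosporine A list and rank 18540 of the longer vehicle list. The following lines show how closely the ends of such a shared cluster matched.
*LAMC1*, cyclosporine A list, chr1:183112351-183112371, plus strand: gtagcattgtgatggccagta
*LAMC1*, vehicle list, chr1:183112352-183112371, plus strand: tagcattgtgatggccagta
*LAMC1* mRNA had 1733, 1790, 1777 and 1584 CPM in the cyclosporine A libraries, against 2378, 2197, 2116 and 2065 CPM in the vehicle libraries, and fell by 0.35 ± 0.06 on the log2 scale (edgeR adjusted p = 7.65e-07). *SKI* and *TIMP3* had a cluster in the cyclosporine A list only and *TGFBR1*, the type I TGF-beta receptor gene, one in the vehicle list only, antisense to the gene; *TIMP3* had no mRNA count in any library and *SKI* and *TGFBR1* did not pass. Over this list 7 of 29 tested genes rose and 17 fell, beside 33.3% and 33.5% of all genes, with a median log2 fold change of -0.33, beside -0.00 for all genes tested. Summed markers of endothelium, stroma and podocytes moved the same way. They stood at 107 to 126 CPM with cyclosporine A and 359 to 402 CPM with vehicle. All 3 tested of 9 were lower, the matrix genes *LUM*, *DCN* and *COL1A1*, which made up nearly all of the sum. *LUM* averaged 63.1 CPM with cyclosporine A and 264 CPM with vehicle, *DCN* 48.6 and 96.1 CPM, and *COL1A1* 5.36 and 15.6 CPM. *PECAM1* and *KDR* stood at 0, and the part of these markers in the result was not tested. The gene lists were chosen with results of these data known, so neither their direction nor their share of genes with a cluster is independent evidence.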

How the data were processed

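The AGO2 PAR-CLIP lists of HK-2 cells were used, with mRNA and miRNA counts of 4 libraries per treatment. The count tables that the authors deposited hold unnormalised reads for each symbol or mature miRNA. For each treatment the authors deposited 1 list of clusters, pooled over its libraries, with position, annotation class, sequence and a peak score. No source used here gives the caller of the clusters or how its score was computed. The submitters' processing notes name hg19 as build and TopHat, Bowtie, HTSeq, cutadapt, DESeq2 and CASAVA 1.8.2 as tools. Strand use in counting is not stated there, so a gene and its antisense partner may share reads. Positions are printed 1-based. The list for all Argonaute proteins and the authors' own comparison tables were not used here.

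Members and gene lists were chosen with earlier results of these data known. Clusters were compared by position and strand, and ranked by score within a list only. Gene strand came from RefSeq tables (GRCh38.p14) matched by transcript or symbol, and coordinates of those tables were not used; 2281 of 2586 miRNAs had a sequence, covering 97.7% of counts. R 4.3.3 with edgeR 4.0.16 was used for the counts (filterByExpr, TMM, quasi-likelihood test, group as the only term, Benjamini-Hochberg over all features tested, call at an adjusted p under 0.05); CPM are after TMM, and ± is the SD over 4 libraries for levels and the SE for log2 fold changes. The fit was tested on simulated counts with known changes. Intervals used statsmodels 0.14.6 in Python 3.11.15.

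Named genes were, per list, the 8 highest shared and 8 highest 1-list 3' UTR clusters, the 5 highest clusters of any class, the 5 genes with the most 3' UTR clusters, the 5 largest mRNA rises and falls of at least 10 CPM among genes of 1 list (1 of them is not reported here), up to 4 genes of each fixed list, and the 10 most abundant miRNA families; *EIF2C* genes, members of lists beyond 4, genes with a seed match and miRNAs at their own genes were added after their values were seen. Alternatives were DESeq2 1.42.0, no filter on low counts, each library left out, a replicate block, and other overlap, score, seed and class rules.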

Additional observations from a re-analysis of the deposited data

Results flagged for a closer look

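Levels of 88 groups of 4 libraries were checked for a library that stands apart from the other 3, and chance flags about 1 in 20 such groups. In *N4BP3*, cyclosporine A replicate 3 had 22.3 CPM, against 27.6 to 28.1 CPM in the other cyclosporine A libraries. In *TNFAIP2*, vehicle replicate 4 had 607 CPM, against 665 to 671 CPM in the other vehicle libraries. In *TOX2*, vehicle replicate 4 had 13.5 CPM, against 19.1 to 19.4 CPM in the other vehicle libraries. In each of these genes all cyclosporine A libraries still lay on 1 side of all vehicle libraries.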

How the results depend on the processing

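Overlap depended on how much of each list was kept by score. With both lists kept to the same number of highest-scoring clusters, 42.0% of cyclosporine A and 42.0% of vehicle clusters were shared. By another measure, 68.7% and 48.5% of the clusters in the upper 50% by score overlapped a cluster anywhere in the whole other list. The 3' UTR class had 1.19% of cyclosporine A clusters in the upper 50%, and 5.21% and 5.97% of gene symbols. Seed matches in shared 3' UTR clusters were 0.588% in both lists for an 8-mer and 6.47% and 7.06% for a 6-mer; in 1-list clusters a 6-mer gave 4.44% and 5.19%. Over all 3' UTR clusters of the vehicle list the 8-mer stood in 1.07%, beside 0.341% of its other clusters, with intervals that do not overlap, unlike those of the 7-mer and of the cyclosporine A list. The median log2 fold change of genes in the cyclosporine A list only was 0.036 from the upper 50% and 0.18 on the gene's strand; that of the vehicle list only was 0.11 under each, and that of both lists 0.048 on the gene's strand, an alternative chosen after seeing the data. The cause was not tested. With the replicate block 43 miRNAs were higher and 49 lower. The labels state no pairing by replicate number. For mRNA, same-number libraries correlated at -0.0841 to 0.033, each below the highest value with another number. For miRNA, replicate 2 had 0.338, against at most -0.0527 with another number, and replicate 4 had 0.153, against 0.0477. Replicates 1 and 3 had 0.0425 and -0.0599, below the 0.078 and 0.179 with another number. Whether the miRNA libraries are paired is thus not settled. Leaving out 1 library gave 14 to 29 higher and 15 to 29 lower miRNAs, lowest without vehicle replicate 3, and 4116 to 4296 higher and 4065 to 4297 lower mRNAs. Under all other alternatives run, 112 values of these comparisons and 220 of named genes kept their direction and side of the threshold, or moved less than their spread. Depth of the PAR-CLIP libraries is unknown, so a cluster missing from 1 list may lie below its detection limit.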
